A study of Homo sapiens with 6 samples.

Results

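The LTR10 and MER61 families of endogenous retroviral long terminal repeats (LTRs) were described in RNA-seq libraries of 4 atypical teratoid rhabdoid tumor (AT/RT) cell lines. Members were the annotated elements whose RepeatMasker name was LTR10 followed by a letter from A to G and an optional digit, or began with MER61. This rule took 5530 of 720177 LTR elements, of which 2165 were LTR10 and 3365 were MER61, and it used no measured value. CHLA 02 and CHLA 05 gave 1 library each, and CHLA 04 and CHLA 06 were each sequenced as 2 technical replicates, for 6 libraries of total RNA. All 4 lines come from the same tumor type, a brain tumor of young children defined by loss of the chromatin remodelling subunit SMARCB1, and all were grown in DMEM:F12 medium with EGF, basic FGF and B-27. The paper places CHLA 02, CHLA 04 and CHLA 05 in AT/RT group 1 and CHLA 06 in group 2. Group and line cannot be told apart in comparisons with CHLA 06. The labels name no treatment and no normal tissue. Each line is 1 biological sample, so no test between lines was possible, and every difference below is between these libraries. Intervals cover counting error only, and the spread of the technical replicates covers no difference between biological samples of a line. SMARCB1 transcripts were counted at 13.5 to 26.2 TPM, a level per base of transcript scaled to the same total in each library, in the 6 libraries. Among markers of other cell types, the leukocyte gene PTPRC, the endothelial gene PECAM1 and the liver gene ALB had at most 0.224, 0.0378 and 0.743 TPM in any library. The macrophage gene CD68 had 6.36 TPM in CHLA 02 and 6.34 and 22.6 in the CHLA 06 replicates, against at most 0.897 in CHLA 04 and CHLA 05. The mesenchymal collagen gene COL1A1 had 387 TPM in CHLA 02 and 600 and 459 in the CHLA 06 replicates, against 0.679 to 11.54 in CHLA 04 and CHLA 05. The part of these differences in the results below was not tested.

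LTR10 elements are the terminal repeats of HERVIP10 and HERVI proviruses, and MER61 elements flank MER61-int or HUERS-P3 internal sequence. Most copies in the genome are solitary LTRs left after the internal part was lost. Both families are known for carrying binding sites of p53, the tumor suppressor that activates cell cycle arrest, DNA repair and apoptosis genes, and several MER61 and LTR10 copies are bound by p53 in stressed cells. LTR10A and LTR10F are known instead for binding sites of AP-1, the FOS and JUN transcription factors.

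The p53 sites differed between the subfamilies that hold them. A p53 site is made of 2 palindromic half-sites of 10 bases, each with a core of 4 bases that starts with C and ends with G. Elements were searched on the GRCh38 genome for the p53 consensus without a spacer, with the C and G of both cores intact and at most 3 mismatches over the 20 bases. The most frequent matching sequence of each subfamily with many sites is given below along the strand of the element, with the core of each half-site in capitals, to show how near to the consensus each subfamily comes.
LTR10B1: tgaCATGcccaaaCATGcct
LTR10B2: aggCATGcctgaaCTTGcta
LTR10C: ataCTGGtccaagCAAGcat
LTR10D: ttaCATGcccagaCATGcca
LTR10E: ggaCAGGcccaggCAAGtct
MER61C: gggCTTGtctgggCATGccc
MER61D: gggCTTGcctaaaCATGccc
MER61E: tgaCTTGcccagaCATGccc

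The LTR10C sequence was shared by 95 elements and had 3 mismatches. The MER61D sequence was shared by 31 elements and the MER61C sequence by 11, and neither had a mismatch. The MER61E, LTR10B1, LTR10B2 and LTR10E sequences had 1 mismatch each and were shared by 18, 10, 7 and 9 elements. The LTR10D sequence, in 5 elements, had 3 mismatches. How constant the place of the site was differed between subfamilies. The quartiles of the start were 191 and 204 bases into the element for LTR10C sites and 164 and 179 bases for MER61E sites. For LTR10E sites the quartiles were 54 and 222 bases, for LTR10B1 sites 127 and 242, and for MER61D sites 9 and 121.

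Among elements of 300 to 600 bp, 442 of 1564 LTR10 elements (28.3%) and 351 of 1890 MER61 elements (18.6%) held a match, against 5620 of 310002 other LTR elements (1.81%). Exact matches stood in 1.53% of these LTR10 elements, in 5.93% of the MER61 elements and in 0.0542% of the others. Of 35116 RefSeq promoters of 300 bases, 1.12% held a match within 3 mismatches. Other LTR families differed widely, with 0.0602% of LTR7, 0.372% of LTR12 and 1.18% of MER41 elements. The subfamilies fell into those with the site and those without it. LTR10C (73.9%), MER61D (61.5%), LTR10B2 (53.8%), MER61C (53%), MER61E (50.6%), LTR10B1 (46.5%) and LTR10E (37.6%) often held it, and LTR10D held it in 12.9%. It was found in 0.837% of LTR10A elements, and no LTR10F, LTR10G or LTR10B element held it. The AP-1 core TGANTCA, which reads the same on both strands, was frequent in subfamilies without the p53 site, but not in all of them. It stood in 90.6% of LTR10F and 70.7% of LTR10A elements, against 24.0% of other LTR elements and 7.71% of the promoters. In the p53-site subfamilies it was found in 0.995% (LTR10C) to 9.62% (MER61D). Neither motif was frequent in LTR10B (0% p53 and 1.67% AP-1), MER61A (0.154% and 1.23%) or MER61B (0.643% and 0.322%). A match describes the sequence only, and binding was not measured.

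**Figure D1:**
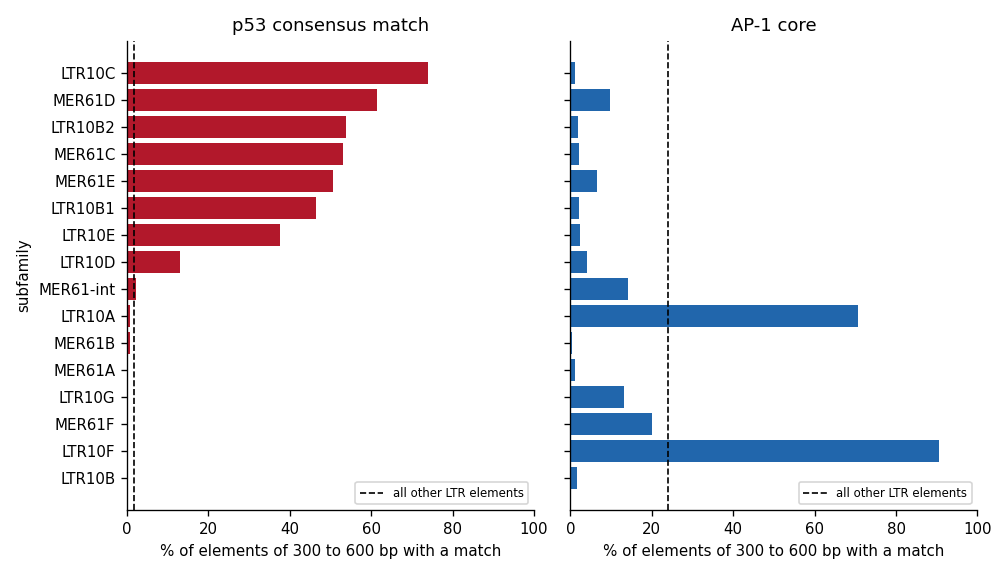
Percent of elements of 300 to 600 bp with a p53 consensus match of at most 3 mismatches (left) and with an AP-1 core (right) in each LTR10 and MER61 subfamily. Bars are subfamilies, and the dashed lines mark all other LTR elements, at 1.81% and 24.0%. LTR10C has the longest p53 bar and LTR10F the longest AP-1 bar.

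The depth over LTR elements was 355302 to 511408 reads per library, recovered from the deposited TPM, and CHLA 04 replicate 1 was the shallowest. CHLA 02 and CHLA 04 had few LTR elements of their own. Elements with at least 10 reads in every library of a line and at most 1 read in each other library numbered 0 of 10385 in CHLA 02, 11 of 6210 in CHLA 04, 433 of 9632 in CHLA 05 and 43 of 8260 in CHLA 06. With CHLA 04 and CHLA 06 alone as the others, 1 element of CHLA 02 and 465 of CHLA 05 were left. Where CHLA 04 and CHLA 06 differed by at least 2 on the log2 scale, CHLA 02 lay between them for 87.1% of 7484 LTR elements (44 of 49 members) and CHLA 05 for 73.7% (34 of 49 members). Whether the CHLA 02 library holds RNA of other lines was not tested, so its intermediate values may not be levels of that line alone. Counts of detected members and of members that differed in any pair are given with and without CHLA 02. The technical replicates of CHLA 04 differed by more than counting error on LTR10, as shown next.

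Reads were spread over few elements. At least 5 reads in a library, taken here as detection, were found on 178 of 2165 LTR10 elements (8.22%) and on 141 of 3365 MER61 elements (4.19%), while 4.81% of all LTR elements reached that number. Without CHLA 02 these were 167 and 137 elements. A total of 4453 members had no read in any library, which allows at most 3 reads per library for each of them. The detected share was 4.59% for LTR7, 4.91% for MER41, 9.13% for LTR12 and 12.6% for the HERVIP10 and HERVI internal parts that LTR10 flanks. LTR10 made up 0.344% of annotated LTR bases and 0.517% of LTR reads, and MER61 made up 0.688% of the bases and 0.384% of the reads. The 10 most read elements held 28.5% of the LTR10 reads and 43.3% of the MER61 reads. Of the 319 detected members, 103 were detected in all 4 lines, 45 in 3, 72 in 2 and 99 in 1 line. Without CHLA 02, 116 of 304 were detected in all 3 lines, 65 in 2 and 123 in 1.

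As RPM, the reads of a family scaled by all LTR reads of the library, LTR10 took 5758 in CHLA 02, 3622 and 5348 in the CHLA 04 replicates, 5773 in CHLA 05, and 5154 and 5046 in the CHLA 06 replicates. CHLA 02 and CHLA 05 were alike within their 95% Wilson intervals (5545 to 5979 and 5547 to 6009). The CHLA 04 replicates were farther apart than any 2 other libraries, with intervals of 3430 to 3825 and 5152 to 5552, so the place of CHLA 04 in the order of the lines was not determined. MER61 took 3894 RPM in CHLA 02, 2806 and 3264 in the CHLA 04 replicates, 3921 in CHLA 05, and 4225 and 4714 in the CHLA 06 replicates. Both CHLA 04 libraries lay below every other library, and both CHLA 06 libraries above, although the interval of CHLA 06 replicate 1 (4039 to 4419) touched those of CHLA 02 (3719 to 4077) and CHLA 05 (3735 to 4116). On the log2 scale CHLA 06 exceeded CHLA 04 by 0.56 for MER61 and by 0.18 for LTR10. Without CHLA 04 replicate 1 the LTR10 value turned to -0.07.

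The subfamilies did not follow 1 order of the lines. LTR10C, the most read, had 2120 RPM in CHLA 02, 1269 and 2004 in the CHLA 04 replicates, 2210 in CHLA 05, and 1783 and 1891 in the CHLA 06 replicates. LTR10A, one of the AP-1 site subfamilies, was lowest in CHLA 06 (613 and 673), with 945 in CHLA 02, 737 and 1304 in the CHLA 04 replicates and 1138 in CHLA 05. LTR10F, the other, was highest in CHLA 06 (771 and 671), with 569 in CHLA 02, 290 and 323 in the CHLA 04 replicates and 437 in CHLA 05. LTR10D had the same order as LTR10F at 823 and 723 in the CHLA 06 replicates, 642 in CHLA 02, 265 and 403 in the CHLA 04 replicates and 623 in CHLA 05. In several subfamilies 1 element set the level. The top element held 73.4% of the reads of MER61F, 42.4% of those of MER61E and 38.9% of those of LTR10A. It held 32.9% of those of LTR10F and 20.9% of those of LTR10D, but 7.65% of those of LTR10C. Without the top element, both CHLA 06 libraries lay below CHLA 02 and CHLA 05 in LTR10F, and in LTR10D as well. Per base, LTR10C (2130 reads per 100 kb over the 6 libraries) and LTR10D (2030) lay above all LTR elements (1000), and LTR10B1 (281) and MER61-int (475) below.

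**Figure D2:**
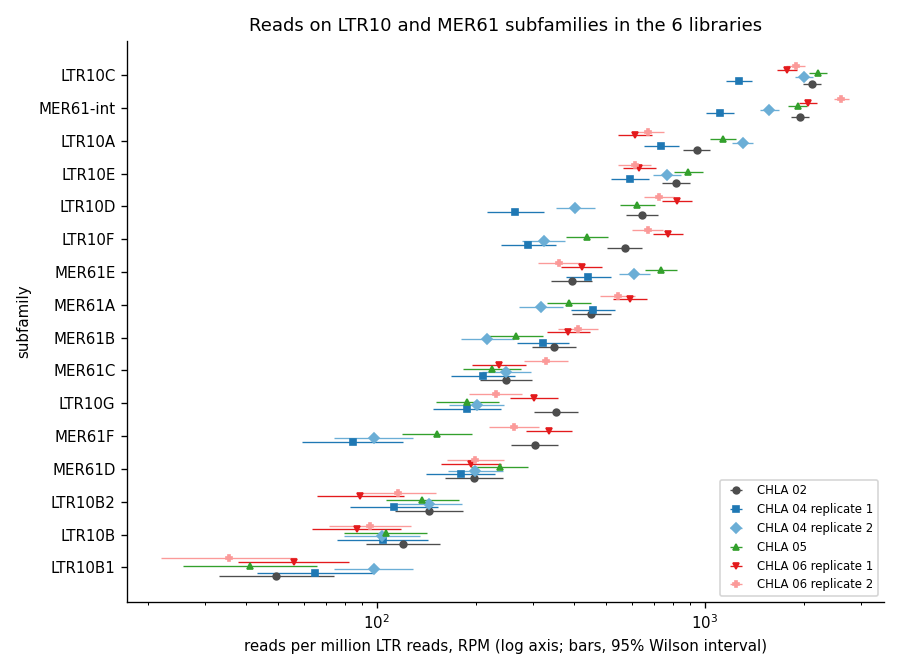
Reads of each subfamily as RPM, scaled by all LTR reads of the library (log axis), in the 6 libraries, with 95% Wilson intervals as bars, sorted by total reads. LTR10C and MER61-int lead at 1112 to 2611 RPM, and MER61F spans the widest range, from 84.4 in CHLA 04 replicate 1 to 334 in CHLA 06 replicate 1.

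Elements with a p53 match were detected more often than the others when whole families were compared, while in the 7 subfamilies compared at like length the intervals overlapped. In LTR10, 67 of 488 elements with a match (13.7%, 95% Wilson interval 11 to 17.1) and 111 of 1677 without one (6.62%, 5.53 to 7.91) were detected. In MER61 these were 27 of 386 (6.99%, 4.85 to 9.99) and 114 of 2979 (3.83%, 3.20 to 4.58). Without CHLA 02 the shares were 13.1% and 6.14% in LTR10 and 6.99% and 3.69% in MER61. Elements with a match were longer, with medians of 575 against 478 bases in LTR10 and of 422.5 against 337 bases in MER61. Among LTR10C elements of at least 500 bases, 44 of 266 with a match (16.5%, 12.6 to 21.5) and 15 of 65 without (23.1%, 14.5 to 34.6) were detected. In LTR10B1 elements of at least 350 bases, 4 of 45 with a match (8.89%, 3.51 to 20.7) and 0 of 49 without (up to 7.27%) were detected. The intervals also overlapped in LTR10B2 (1 of 26 and 2 of 13), LTR10E (9.09% and 8.93%), MER61C (6.42% and 8.86%), MER61D (5.08% and 3.95%) and MER61E (6.90% and 4.35%) at like length. LTR10 elements with a match took 2315 RPM in CHLA 02, 1579 and 2286 in the CHLA 04 replicates, 2300 in CHLA 05, and 1603 and 1714 in the CHLA 06 replicates, so that both CHLA 06 libraries lay below CHLA 02 and CHLA 05. LTR10 elements without a match did not have this order, nor did MER61 elements with a match. The former took 3443 RPM in CHLA 02, 2043 and 3062 in the CHLA 04 replicates, 3474 in CHLA 05, and 3551 and 3332 in the CHLA 06 replicates. The latter took 634, 583 and 896, 737, and 569 and 671 RPM. Some LTR10 reads without a match lay on elements with 0 reads in CHLA 05. LTR10F in KCNMB2 had 73 reads in CHLA 02, and 213 and 169 in the CHLA 06 replicates. LTR10D at chr9:94513415-94513900 had 45, and 168 and 116. With these elements left out, both CHLA 06 libraries lay below CHLA 02 and CHLA 05 among LTR10 elements without a match too. The difference in order between LTR10 elements with and without a match thus rested on them.

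Detection went with the position of the element in genes. Of the 319 detected members, 218 (68.3%, 63.0 to 73.2) overlapped an annotated gene, against 1903 of 5211 others (36.5%). Where the overlapping genes lay on 1 strand, the detected member was on that strand in 167 of 203 cases (82.3%, 76.4 to 86.9) and an undetected one in 525 of 1793 (29.3%, 27.2 to 31.4). All LTR elements had the same pattern, with 69.7% and 39.0% in genes and 89.4% and 31.7% on the strand of the gene. An LTR10 element in the sense of its gene was detected in 30.7% of 339 cases (26 to 35.8), an antisense one in 4.23% of 567 and one outside genes in 3.25% of 1201. For MER61 these shares were 17.8% of 353, 1.63% of 737 and 2.81% of 2208, and for all LTR elements 19.7%, 1.33% and 2.44%. Without CHLA 02 these were 30.4%, 3.70% and 2.83% for LTR10 and 17.6%, 1.63% and 2.67% for MER61. The libraries were stranded, but whether the strand was used in counting was not given in the sources used here. Reads on a sense element inside a gene may come from the transcript of that gene, which was not tested. Exons of annotated transcripts overlapped 25 of the detected members (7.84%) and 156 of the others (2.99%).

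**Figure D3:**
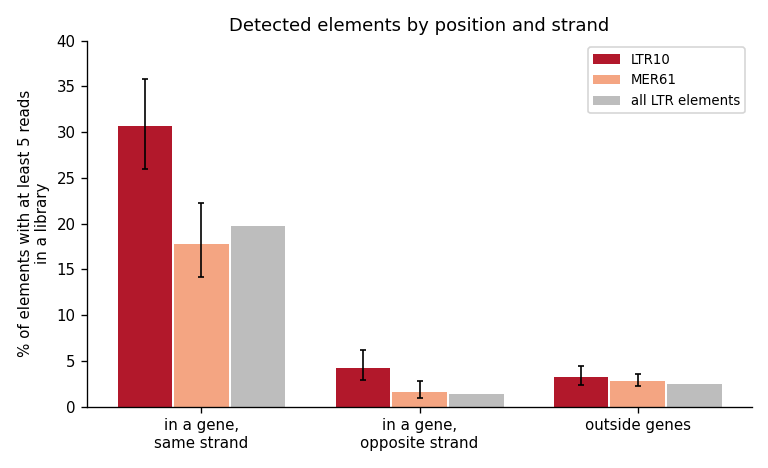
Percent of elements with at least 5 reads in a library, for LTR10, MER61 and all LTR elements, by position in genes and strand. Error bars are 95% Wilson intervals, given for the 2 families. Sense elements in genes reach 30.7% for LTR10 and 17.8% for MER61, and all other bars lie below 5% except the 19.7% of all sense LTR elements.

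Of 353 copies that kept 2 LTRs of 1 subfamily within 10000 bases and at least 1000 bases of internal sequence between them, 33 had at least 100 reads over the 6 libraries and 4 at least 1000. These 4 are described, and were chosen after their values were seen. The most read member was part of such a MER61 copy in LINC01021, known as PURPL, a long noncoding RNA that p53 induces and that limits the p53 level. The copy lay on the plus strand at chr5:27472074-27477973 (GRCh38), with a MER61C LTR at each end and MER61-int between them. The 5′ LTR held the exact p53 match gggCTTGtctgggCATGccc at chr5:27472165-27472184, which ended 108 bases before the first annotated start of LINC01021 at base 27472292, inside the same LTR. The site is printed because 5 of the 6 annotated LINC01021 transcripts started in this LTR. The long MER61-int part of 4828 bases had 210 reads in CHLA 02, 89 and 110 in the CHLA 04 replicates, 134 in CHLA 05, and 251 and 332 in the CHLA 06 replicates. The 3′ LTR (chr5:27477543-27477973), which overlaps a LINC01021 exon, held no match without a spacer and one of 3 mismatches when a spacer between the half-sites was allowed. It had 80.65 TPM in CHLA 02, 40.28 and 37.55 in the CHLA 04 replicates, 48.46 in CHLA 05, and 71.3 and 95.64 in the CHLA 06 replicates. The 5′ LTR upstream of most of the transcript had 0 to 6 reads per library.

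Over the whole copy the level was 539 RPM in CHLA 02, 301 and 250 in the CHLA 04 replicates, 379 in CHLA 05, and 642 and 798 in the CHLA 06 replicates. CHLA 06 was the highest and CHLA 04 the lowest, without overlap of their libraries. The spliced LINC01021 transcripts, on the separate scale of TPM over transcripts, did not have this order. They reached 7.02 TPM in CHLA 02, 5.31 and 3.58 in the CHLA 04 replicates, 5.81 in CHLA 05, and 4.62 and 6.37 in the CHLA 06 replicates, and the CHLA 06 libraries lay within the range of the others. In all, 22 annotated genes started inside a member on its strand, 5 of them in a member with a p53 match, and 8 had at least 10 reads over the 6 libraries. Among these were LINC01021, PHAX and BSG. PHAX, which encodes an RNA export adaptor, had 28.7 to 39.7 TPM, and its first annotated start lay in an LTR10C element with a match of 3 mismatches. BSG had the highest level, at 352 to 669 TPM, and its first start lay in an LTR10B element without a match. Neither the PHAX nor the BSG element was detected. These levels are sums over all transcripts of a gene, so they are not levels of transcripts that start in the LTR.

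The members with exact p53 matches and the most reads were next in MER61E, MER61C and MER61D. A MER61E element with the exact match agaCTTGcccagaCATGccc (chr6:31487591-31487610, minus strand) lay 7105 bases from the start of MICB, which encodes a stress ligand of natural killer cells, and outside annotated genes. It had 50.62 TPM in CHLA 02, 215.91 and 259.12 in the CHLA 04 replicates, 25.11 in CHLA 05, and 9.0 and 3.37 in the CHLA 06 replicates. CHLA 04 was highest and CHLA 06 lowest, by 4.96 on the log2(TPM + 2) scale, with all CHLA 04 libraries above all others. MICB itself had 45.8, 69.4 and 91.9, 71.9, and 9.12 and 15.9 TPM in the same order of libraries, so both were lowest in CHLA 06. MER61D in an intron of ASB3, a ubiquitin ligase adaptor (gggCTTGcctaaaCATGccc, chr2:53752600-53752619), had 49.52 TPM in CHLA 02, 17.52 and 28.32 in the CHLA 04 replicates, 31.74 in CHLA 05, and 61.84 and 35.22 in the CHLA 06 replicates, while ASB3 lay between 15.1 and 20.0 TPM. MER61C in an intron of KDM6A, a histone demethylase (gggCTTGcctgggCATGcct, chrX:44975839-44975858), had 16.02, 30.77 and 24.86, 27.86, and 49.57 and 53.01 TPM in that order, with CHLA 06 above the others. The LTR10E element with the exact match ggaCATGcccaggCATGtcc (chr6:150857347-150857366), 7956 bases from the start of MTHFD1L, had 2 to 13 reads per library and 22.9 TPM at most, in CHLA 05.

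A MER61E provirus with HUERS-P3 internal parts stretched from an intron of NCR3LG1, which encodes another natural killer cell ligand, toward KCNJ11 (chr11:17369842-17379258, plus strand). Its 5′ LTR held the exact match agaCTTGcctagaCATGctc at chr11:17370017-17370036. That LTR had 39.2 TPM in CHLA 02, 17.57 and 21.97 in the CHLA 04 replicates, 82.65 in CHLA 05, and 46.21 and 34.24 in the CHLA 06 replicates. The 3′ LTR, which held an exact match only when a spacer between the half-sites was allowed, was the MER61 element of the highest mean level, with 125.23, 51.45 and 118.08, 356.13, and 179.41 and 176.28 TPM. The whole copy took 2027 RPM in CHLA 02, 918 and 1701 in the CHLA 04 replicates, 7245 in CHLA 05, and 3369 and 3968 in the CHLA 06 replicates. CHLA 05 was the highest in each part of the copy, and NCR3LG1 was too, at 61.3 TPM against 10.6 to 26.2 in the other libraries. Internal parts held 7877 of its 8560 reads, so most reads of this provirus lay outside the MER61 annotation. The first LTR lay in an intron of NCR3LG1 and the last outside genes, so the last annotated exon of NCR3LG1 lay between them. Whether reads on the internal parts come from that gene was not tested.

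**Figure D4:**
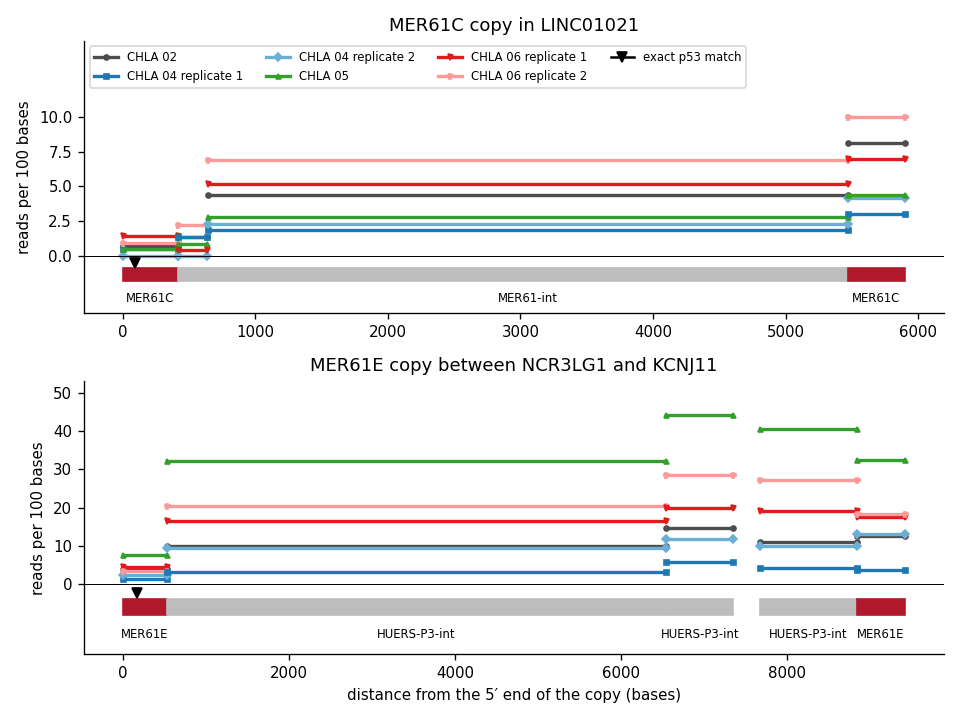
Reads per 100 bases on each annotated part of 2 MER61 proviruses in the 6 libraries, against the distance from the 5′ end of the copy in bases. Red boxes are MER61 LTRs, gray boxes internal parts, and the black triangle marks the exact p53 match in each 5′ LTR. In both copies the 5′ LTR has the lowest or nearly the lowest density, CHLA 06 replicate 2 leads in the internal parts and the 3′ LTR of the LINC01021 copy, and CHLA 05 leads in every part of the other.

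Most of the other members of highest level lay in genes or near them. MER61F in the 3′ end of FAS, the death receptor gene that p53 activates (chr10:89019954-89020609, plus strand), had 169.55 TPM in CHLA 02, 36.64 and 31.52 in the CHLA 04 replicates, 30.16 in CHLA 05, and 196.76 and 166.59 in the CHLA 06 replicates. In GENCODE v44 this element overlaps an untranslated exon of FAS, although in the annotation of the deposited files it lies outside genes. FAS had 136, 48.2 and 35.5, 61.2, and 174 and 154 TPM over transcripts in the same order, so that element and gene were both high in CHLA 02 and CHLA 06. The LTR10 element of the highest mean level was an LTR10A in an untranslated exon of FOXRED2, an endoplasmic reticulum oxidoreductase (chr22:36487153-36487638, minus strand). It had 324.9 TPM in CHLA 02, 181.34 and 547.55 in the CHLA 04 replicates, 499.84 in CHLA 05, and 193.92 and 226.83 in the CHLA 06 replicates, and FOXRED2 had 38.6, 123 and 102, 58.2, and 15 and 17 TPM. The CHLA 04 replicates differed on the element far more than on the gene.

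Further LTR10 elements of high level lay in introns, on the strand of the gene. LTR10A in TRIM2, a ubiquitin ligase gene (chr4:153299548-153300077), had 142.41 TPM in CHLA 02, 221.72 and 176.41 in the CHLA 04 replicates, 58.07 in CHLA 05, and 34.79 and 16.28 in the CHLA 06 replicates. TRIM2 had the same order of lines, with 234, 595 and 439, 114, and 59.0 and 54.2 TPM. LTR10C in PCDH9, a protocadherin gene (chr13:66614680-66615269), had 260.9, 131.27 and 102.09, 35.4, and 69.45 and 81.24 TPM, and held the common LTR10C site shown above. PCDH9 was lowest in CHLA 05 too, at 66.2 TPM, but its CHLA 06 replicates (336 and 188) lay at or above both CHLA 04 replicates (188 and 124). LTR10C in PRRC2B (chr9:131412938-131413515), with the same site sequence, had 89.34, 76.24 and 163.32, 114.1, and 63.8 and 44.78 TPM, and the CHLA 04 replicates overlapped the other lines. LTR10F in ZNF562 (chr19:9673926-9674425) and LTR10C in UBE2N, which encodes a ubiquitin-conjugating enzyme (chr12:93412458-93413038), varied less, with 75.81 to 120.91 and 51.13 to 99.14 TPM.

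In MER61, 2 parts of MER61-int in an intron of the zinc finger gene ZNF730 followed the LTR near KCNJ11 (chr19:23103226-23104028 and chr19:23104322-23105106). The first had 115.02 TPM in CHLA 02, 29.93 and 124.27 in the CHLA 04 replicates, 165.63 in CHLA 05, and 85.47 and 161.16 in the CHLA 06 replicates. The second had 97.41, 71.44 and 124.83, 184.83, and 70.47 and 137.99 TPM. Replicates of 1 line differed here as much as lines did. MER61B in ARID5B (chr10:62022345-62022650), a chromatin regulator gene, had 46.7 TPM in CHLA 05 and 64.64 to 87.04 in the other libraries. MER61B in MRPL42 (chr12:93494977-93495241), a mitochondrial ribosome gene, had 33.93 to 75.58 TPM with overlapping lines.

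Some members were read in some lines and had no read in others. A count of 0 reads in a library allows up to 3 reads, and folds against such lines are lower bounds computed from 3 reads per library. LTR10F in an intron of KCNMB2, a potassium channel subunit gene (chr3:178541753-178542230, plus strand), had 151.67 TPM in CHLA 02, 456.48 and 338.92 in the CHLA 06 replicates and 0 reads in CHLA 04 and CHLA 05, so it was at least 47.5-fold higher in CHLA 06. KCNMB2 had 35.6 TPM in CHLA 02, 52.4 and 37.6 in the CHLA 06 replicates and 0 in the others, and KCNMB2-AS1, which overlaps on the opposite strand, had at most 4.27 TPM. LTR10D at chr9:94513415-94513900, outside genes, had the same pattern, with 91.95 TPM in CHLA 02, 354.12 and 228.8 in the CHLA 06 replicates and 0 reads in CHLA 04 and CHLA 05 (at least 35.4-fold). The gene of its nearest start, RP11-533K9.3 at 17140 bases, had 0 TPM in every library. MER61B at chr2:185455546-185455927, also outside genes, had 28.6 TPM in CHLA 02, 69.72 and 92.85 in the CHLA 06 replicates and 0 reads in the other lines (at least 7.75-fold). FSIP2, whose start was nearest at 282701 bases, had 11.6 TPM in CHLA 02, 14.2 and 13.8 in the CHLA 06 replicates and at most 0.03745 in the others. These 3 elements were read in CHLA 06 and, at a lower level, in CHLA 02.

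The reverse pattern was present as well. LTR10C at chrX:26756828-26757418, outside genes and with a p53 match of 3 mismatches, had 45.37 TPM in CHLA 02, 112.97 and 117.13 in the CHLA 04 replicates and 0 reads in CHLA 05 and CHLA 06 (at least 20.6-fold higher in CHLA 04). RPL7P58, whose start was nearest at 70802 bases, had 3.75 TPM in CHLA 02, 15.3 and 5.735 in the CHLA 04 replicates and 0 in CHLA 05 and CHLA 06. LTR10A in FAM65B (chr6:24877631-24878200) had 57.5 TPM in CHLA 02, 49.2 and 111.98 in the CHLA 04 replicates, 52.07 in CHLA 05 and 0 reads in CHLA 06 (at least 15-fold). FAM65B had 112, 224 and 323, 115, and 0.0233 and 0.106 TPM. LTR10B between TFPI and AC007319.1, which overlap it on opposite strands (chr2:187509817-187510121, plus strand), had 81.4 TPM in CHLA 02, 78.81 and 100.22 in the CHLA 04 replicates, 3.6 in CHLA 05 and 0 reads in CHLA 06 (at least 8.89-fold). TFPI, on the other strand, had 142 TPM in CHLA 02, 7.79 and 16.1 in the CHLA 04 replicates, 11.6 in CHLA 05 and 319 and 462 in the CHLA 06 replicates, and AC007319.1, on the strand of the element, had 15.1 and 6.87 TPM in CHLA 04 and 0.161 and 1.15 in the CHLA 06 replicates.

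CHLA 05 lacked reads on 2 MER61A elements that the other lines transcribed. MER61A at chr2:156150027-156150357, outside genes, had 135.01 TPM in CHLA 02, 112.96 and 43.46 in the CHLA 04 replicates, 133.08 and 167.97 in the CHLA 06 replicates and 0 reads in CHLA 05 (at least 15.1-fold higher in CHLA 06). AC093375.1, the gene of the nearest start at 125414 bases, had a like pattern. It had 20.8 TPM in CHLA 02, 14.3 and 5.88 in the CHLA 04 replicates, 0 in CHLA 05, and 22.8 and 20.2 in the CHLA 06 replicates. MER61A in METTL24 (chr6:110325626-110325964) had 58.59, 59.09 and 47.74, 0, and 142.03 and 98.97 TPM (at least 12.4-fold), and METTL24 had 25.8, 21.9 and 18.9, 0, and 60.8 and 38.5 TPM. MER61A in the noncoding gene RP11-404J23.1 (chr4:179445954-179446289) had 62.16 TPM in CHLA 05, 15.9 and 16.05 in the CHLA 04 replicates and 0 reads in CHLA 02 and CHLA 06 (at least 6.80-fold higher in CHLA 05).

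The 3 members with at least 10 reads in CHLA 05 and at most 1 read in each CHLA 04 and CHLA 06 library, and 1 such member of CHLA 02, were chosen after their values were seen. LTR10C in COBL, an actin nucleator gene (chr7:51147297-51147742), had 51.76 TPM in CHLA 05 and no read in any of the other 5 libraries (at least 5.76-fold). COBL had 141 TPM in CHLA 05 and at most 1.68 elsewhere. LTR10D in HIF3A, a hypoxia factor gene (chr19:46338948-46339449), had 54.74 TPM in CHLA 05 and 1 read in all other libraries together, and HIF3A had 64.5 TPM in CHLA 05 and at most 4.98 elsewhere. LTR10A antisense to TACC3 (chr4:1738560-1739026) had 47.07 TPM in CHLA 05 and 0 to 4.25 elsewhere, whereas TACC3, on the other strand, had 160 TPM in CHLA 05 and 85.7 to 247 elsewhere. In GENCODE v44 this LTR10A element overlaps an untranslated exon of TACC3. The CHLA 02 member, a MER61-int part at chr10:38230526-38231180, had 10 reads in CHLA 02, 7 in CHLA 05 and at most 1 in each other library.

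**Figure D5:**
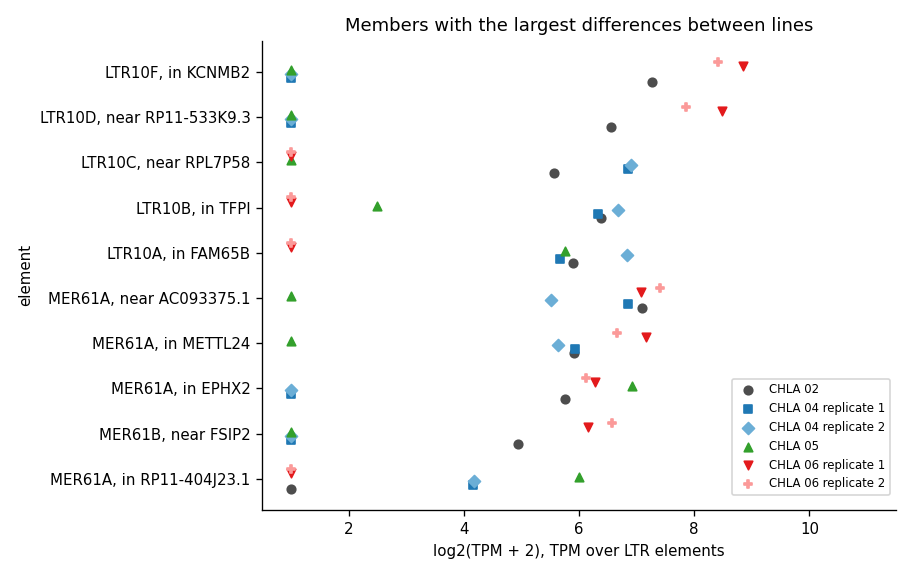
Level of the 5 LTR10 and 5 MER61 elements with the largest difference between lines, as log2(TPM + 2) with TPM over LTR elements, in the 6 libraries. A value of 1 stands for 0 reads. CHLA 02 lies between the CHLA 04 and CHLA 06 values for most of these elements.

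The share of members that differed between lines was near that of all LTR elements in 4 of the 6 pairs, and lower in both others, CHLA 05 with CHLA 02 and with CHLA 06. An element was compared between 2 lines if a library of the pair had at least 10 reads, and was called different if the means of log2(TPM + 2) differed by at least 1 and the libraries of the lines did not overlap. In at least 1 of the 6 pairs 146 of 177 members (82.5%) were called, against 80.7% of all LTR elements compared. Without CHLA 02, 131 of 171 members (76.6%) and 75.1% of all elements were called. Members called were 35.6% between CHLA 04 and CHLA 02 (35.3% of all elements), 38.2% between CHLA 05 and CHLA 02 (54.8%), 37.9% between CHLA 06 and CHLA 02 (41.1%), 48.5% between CHLA 05 and CHLA 04 (49.2%), 58.2% between CHLA 06 and CHLA 04 (59.7%) and 47.6% between CHLA 06 and CHLA 05 (57.0%). CHLA 02 and CHLA 05 have 1 library each, so that overlap could not be judged between them.

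The direction of the calls is set beside that of all LTR elements. Of 60 MER61 elements compared, 27 (45.0%) were higher in CHLA 06 than in CHLA 04 and 7 (11.7%) lower, while 32.9% of all LTR elements were higher and 26.9% lower. Against CHLA 05, 23 of 54 MER61 elements (42.6%) were higher in CHLA 06 and 7 (13%) lower, against 30.1% and 26.9% of all elements. The median difference of the MER61 elements from CHLA 04 to CHLA 06 was 0.88 on the log2(TPM + 2) scale, and that of all elements compared was 0.25. In LTR10, 33 of 90 elements (36.7%) were higher in CHLA 05 than in CHLA 04 and 10 (11.1%) lower, against 26.3% and 22.9% of all elements. Between CHLA 04 and CHLA 02, 4 of 88 LTR10 elements (4.55%) were higher in CHLA 04 and 28 (31.8%) lower, against 15% and 20.3% of all elements. Both LTR10 counts changed without CHLA 04 replicate 1, but between CHLA 04 and CHLA 02 more elements stayed lower than higher in CHLA 04. Without that library, 17 of 87 LTR10 elements (19.5%) were higher in CHLA 05 than in CHLA 04 and 15 (17.2%) lower, against 24.0% and 23.8% of all elements. Between CHLA 04 and CHLA 02, 7 of 88 (7.95%) were then higher in CHLA 04 and 19 (21.6%) lower, against 18.4% and 20.8% of all elements. The MER61 counts between CHLA 06 and CHLA 04 were then 24 higher and 10 lower of 60. These comparisons share libraries and are not independent of each other. Parts of 1 copy, or elements in 1 transcript, were counted as separate elements and may share reads. The counts are therefore not counts of independent loci.

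Where a called member lay in the sense of a single gene that could be compared between CHLA 06 and CHLA 04, the gene differed in the same direction in 37 of 45 cases (82.2%). The gene itself was called in that direction in 19 cases (42.2%) and in the opposite direction in 0. Over all LTR elements the gene had the direction of the element in 93.0% of 5399 cases and was called in it in 72.0%. Gene and element were counted on separate scales and may share reads.

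Of the 4 most read copies, 2 were LTR10E proviruses with HERVI and HERVIP10FH internal parts. One of them lay in an intron of SGK223, a pseudokinase gene, on its strand (chr8:8358592-8363270), and both of its LTRs held p53 matches of 1 mismatch. The LTR at the 5′ end had 127.55 TPM in CHLA 02, 140.88 and 149.84 in the CHLA 04 replicates, 131.1 in CHLA 05, and 15.66 and 27.85 in the CHLA 06 replicates. The 3′ LTR had 106.16, 135.84 and 141.05, 98.55, and 33.56 and 26.44 TPM. Both LTRs were lowest in CHLA 06, by 2.68 and 2.14 on the log2(TPM + 2) scale from CHLA 04, and the replicates of CHLA 04 and CHLA 06 did not overlap. The CHLA 06 values of the 5′ LTR rest on 10 and 19 reads. The whole copy took 1699 RPM in CHLA 02, 2378 and 2212 in the CHLA 04 replicates, 1529 in CHLA 05, and 404 and 409 in the CHLA 06 replicates, and SGK223 had 69.7, 222 and 132, 62.5, and 17.5 and 16.3 TPM. A second such copy, at chr15:79915868-79920814 on the minus strand, had 417, 132 and 293, 759, and 629 and 476 RPM, and was lowest in CHLA 04. MER61A in EPHX2, an epoxide hydrolase gene (chr8:27514994-27515318), had 51.95 TPM in CHLA 02, 118.38 in CHLA 05, 75.65 and 67.84 in the CHLA 06 replicates and 0 reads in CHLA 04 (at least 9.61-fold higher in CHLA 05). EPHX2 had 18.5, 0 and 0.0754, 23.2, and 23.6 and 21.9 TPM.

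Transcription factor, regulator and target genes were compared between the lines as well. TP63 lay at or below 0.106 TPM in each library, and TP73 was highest in CHLA 04 (5.05 and 9.22 TPM, against at most 1.21 elsewhere). MDM4, an inhibitor of p53, lay between 72.9 and 157 TPM. Of 35 known p53 target genes, 23 were called in at least 1 pair of lines (65.7%, against 42.0% of all genes compared), 14 of them higher in CHLA 05 than in CHLA 04 (10.4% of all genes compared) and 14 higher in CHLA 06 than in CHLA 04 (12.9%). The list was chosen with earlier results of these data known. CDKN1A, the cell cycle inhibitor p21, had 126 TPM in CHLA 02, 101 and 105 in the CHLA 04 replicates, 258 in CHLA 05, and 178 and 209 in the CHLA 06 replicates, and MDM2, the p53 ubiquitin ligase, was called in no pair (196 to 368 TPM). EDA2R, a death receptor, had 17.4, 1.80 and 1.25, 41.6, and 36.6 and 38.5 TPM, and SFN, a cell cycle inhibitor, 13.9, 1.79 and 1.10, 34.7, and 32.7 and 35.7 TPM. CHLA 04 was thus lowest for both genes.

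In the opposite direction, 2 targets were lower in CHLA 06 than in CHLA 04, as 17.5% of all genes compared were. CD82, a tetraspanin, had 158 and 133 TPM in CHLA 04 and 6.51 and 9.62 in the CHLA 06 replicates, and PPM1D, a phosphatase that restrains p53, had 115 and 102 against 36.0 and 36.6. No relation between these genes and the LTRs was tested over 4 lines. Among 9 AP-1 genes compared, 8 were called in at least 1 pair, against the 42.0% of all genes given above. JUNB had 114 TPM in CHLA 02, 24.6 and 7.25 in the CHLA 04 replicates, 37.5 in CHLA 05, and 251 and 154 in the CHLA 06 replicates. FOS had 128 TPM in CHLA 04 replicate 1 and 5.46 in replicate 2, and FOSB 56.5 and 3.92, so these early response genes differed between technical replicates of 1 line. TRIM28 and SETDB1, which silence endogenous retroviruses, were called in no pair, at 234 to 462 and 42.7 to 87.6 TPM.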

How the data were processed

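Total RNA of 4 AT/RT lines was sequenced with stranded 125 bp paired-end reads, with 2 libraries for CHLA 04 and for CHLA 06, and per the labels CASAVA 1.8.2, FastQC and Trimmomatic were used on the GRCh38 build. The authors mapped the reads separately to Ensembl release 82 transcripts and to RepeatMasker LTR elements in CLC Genomics Workbench and deposited TPM, the reads per base of a feature scaled to the same total over all features of its kind. How reads that match several copies were assigned was not given in the sources used here. Low TPM values times length were whole multiples of 1 step in each library (100% of features of 1 to 50 reads, within rounding of 0.005 TPM plus 0.5%), which gave the reads. With 1 biological sample per line no count test was run.

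Genes were summed over their transcripts. A member was detected at 5 reads in a library. Lines were compared as described with the results, at a pseudocount of 2 TPM. Gene overlap used the spans and exons of the transcript tables, GENCODE v44 gave the untranslated exons, and the promoters came from RefSeq. The genome used for sequence had the chromosome names of the files, and every element lay within its chromosomes. Among members, 151 of 5002 long enough for windows of 100 bases had under 50% of windows unique among members, 12 of them detected.

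Named elements were the 10 LTR10 and 10 MER61 elements of highest mean TPM, the 5 of each family with the largest difference between lines without overlap, and the 5 with the fewest p53 mismatches, ties by reads, among those with 10 reads in a library. Elements outside this rule are named as chosen after their values were seen. The members, lists and rule were chosen with earlier results of these data known. Read recovery, motif search and the call rule were tested on simulated data. Analyses used Python 3.11.15, numpy 2.4.6 and pandas 2.3.3.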

Additional observations from a re-analysis of the deposited data

How the results depend on the processing

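Of 78 alternative values for 10 results, 55 stayed within 1.5 times of the count, or within the spread of the replicates or the interval, and 23 did not. Detected LTR10 and MER61 elements numbered 536 and 541 at 1 read, 111 and 66 at 10 reads and 61 and 32 at 20 reads. Members called in any pair of lines numbered 638 at a minimum of 1 read, 259 at 5 and 75 at 20 reads, and 73 at a difference of 2. Between CHLA 06 and CHLA 04 these were 256, 145, 49 and 45. With 0, 1 and 2 mismatches 35, 113 and 189 LTR10 elements held a p53 match, and 119 MER61 elements held an exact one, while without the core, or with a spacer of 0 to 13 bases, 880 and 1100 MER61 elements did. The share of detected members in genes was 52.5% at 1 read and 75.1% at 10 reads. The excess of MER61 in CHLA 06 over CHLA 04 was 0.36 on the log2 scale from summed TPM. The counts follow from the number of elements each setting admits. For the summed TPM the cause was not tested.

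Leaving out 1 technical replicate gave 172 to 176 detected LTR10 and 132 to 139 MER61 elements, log2 ratios of CHLA 06 over CHLA 04 of -0.07 to 0.49 for LTR10 and of 0.45 to 0.67 for MER61, 141 to 142 members called in any pair, 86 to 89 between CHLA 06 and CHLA 04, and 21 to 23 p53 target genes. The LTR10 ratio fell below 0 without CHLA 04 replicate 1. Without it, an alternative also chosen after seeing the data for directions, LTR10 elements higher in CHLA 05 than in CHLA 04 went from 33 to 17. Leaving out CHLA 02, an alternative chosen after seeing the data, left 69.4% of detected members in genes and 23 p53 target genes called. No paired analysis was possible because the results come from no test, with 1 biological sample per line. Values are relative to all LTR reads, so a change of the whole class would not show, and at 5 reads differences of less than several fold are not detectable.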
